A study of Homo sapiens with 12 samples.

Results

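Glucose enters a cell through transporters and is committed to glycolysis by a few regulated enzymes, and 10 genes of these steps are described here in HepG2 liver and Ls174 intestinal cancer cells treated with an extract of the red seaweed Hypnea musciformis (HME). They are the transporters SLC2A1 and SLC2A3, the hexokinases HK1 and HK2, the phosphofructokinase subunits PFKL and PFKP, the regulatory enzymes PFKFB3 and PFKFB4, the pyruvate kinase PKM and the lactate dehydrogenase subunit LDHA, which make 10 of the 57736 genes in the count tables. The genes were selected on values of these same libraries, namely their counts with and without HME in each line and between the lines, so those values are a description: no p-value is given for them, and a count of members past a limit stands beside the share of all genes past it. HepG2 is a line from a human liver cancer and Ls174 a line from a human colon cancer, both labelled wild type. For routine culture both were grown in DMEM with 10% fetal bovine serum. The study's methods do not state the serum during the HME exposure of these libraries. Its proliferation, apoptosis and mitochondrial assays exposed cells to HME without serum. Treated cells received HME for 24 h (0.7 mg/ml per the labels, while the study's methods state a slightly higher concentration), and control cells of both lines received no extract. Whether the controls received a solvent is not given in the sources used here. Each of the 4 groups has 3 biological replicates.

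Glucose transporters of the SLC2A family let glucose pass down its gradient, and hexokinases then phosphorylate it so that it stays in the cell. Phosphofructokinase makes the committed step of glycolysis, and its strongest activator in most cells is fructose-2,6-bisphosphate, which enzymes of the PFKFB family make and break down. Pyruvate kinase and lactate dehydrogenase act at the end of the pathway, and the latter turns pyruvate into lactate. Hepatocytes take up glucose mainly through SLC2A2, while many cancer cells use SLC2A1, HK2 and PFKFB3. These are, among other genes of the pathway, widely known as targets of the hypoxia-inducible factor HIF1A.

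The libraries held between 1790841 and 3656662 counts. Values are normalized counts (CPM, counts scaled to a common library size after TMM over the 12 libraries), and 3 counts, taken here as the floor of the measurement, correspond to between 0.768 and 1.87 CPM in a library. Because the libraries were made from the 3′ ends of transcripts, CPM does not grow with transcript length and levels of different genes can be set side by side, with the caution that poly(A) site use and priming differ between genes. In bulk RNA, fewer cells with a transcript and less of it per cell cannot be told apart. The 8 liver markers summed to between 12873 and 21447 CPM in the HepG2 libraries, where ALB lay between 2155 and 7775 CPM. The 8 colon epithelium markers summed to between 383 and 475 CPM in the Ls174 libraries, where CDX1 lay between 76.8 and 207 CPM, although MUC2 did not exceed 2.17 CPM and CEACAM5 did not exceed 6.04 CPM there. The HepG2 libraries held between 69.8 and 208.6 CPM of the colon list, led by VIL1, and between 99.0 and 559 CPM of the 8 blood cell markers, nearly all of it LYZ. Liver markers summed to 127 CPM in Ls174 control 3, 57.9 CPM in Ls174 HME 1 and at most 9.53 CPM in the other Ls174 libraries. HepG2 control 2 and Ls174 control 1 stood apart, with mean correlations of 0.870 and 0.879 with the other replicates of their groups, against 0.914 to 0.973 for the other 10 libraries, and HepG2 HME 2 held collagen transcripts that are described beside HK1.

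In HepG2 cells HME went with higher levels of PFKFB3, HK1, HK2 and SLC2A1 and with a lower level of SLC2A3. PFKFB3 lay between 4.98 and 6.06 CPM in control and between 93.0 and 150.1 CPM with HME. The study's methods ask for p under 0.05 and a change of more than 0.58 on the log2 scale, and by these unadjusted limits 4 of the 9 members tested lay higher, where 11.3% of all 11343 genes tested did, and 1 lay lower, where 10.9% did. At an adjusted p under 0.05 the 2 members past the limit were HK1 and PFKFB3, both higher, beside 2.77% of all genes, and no member was past it in the lower direction, beside 0.538%. The HepG2 HME libraries all lay above the controls for 5 members (PFKFB3, PFKFB4, HK1, HK2 and SLC2A1), beside 15.5% of all genes, and all below them for SLC2A3, beside 15.3%. In Ls174 cells only SLC2A1 passed the unadjusted limits, in the lower direction, where 7.85% of the 11319 genes tested did, and no member passed in the higher direction, where 4.11% did. No member passed the adjusted limit in Ls174 cells by edgeR or by DESeq2, beside 0.318% of genes higher and 0.866% lower by edgeR. Since these contrasts chose the genes, nothing is read from these shares.

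**Figure D1:**
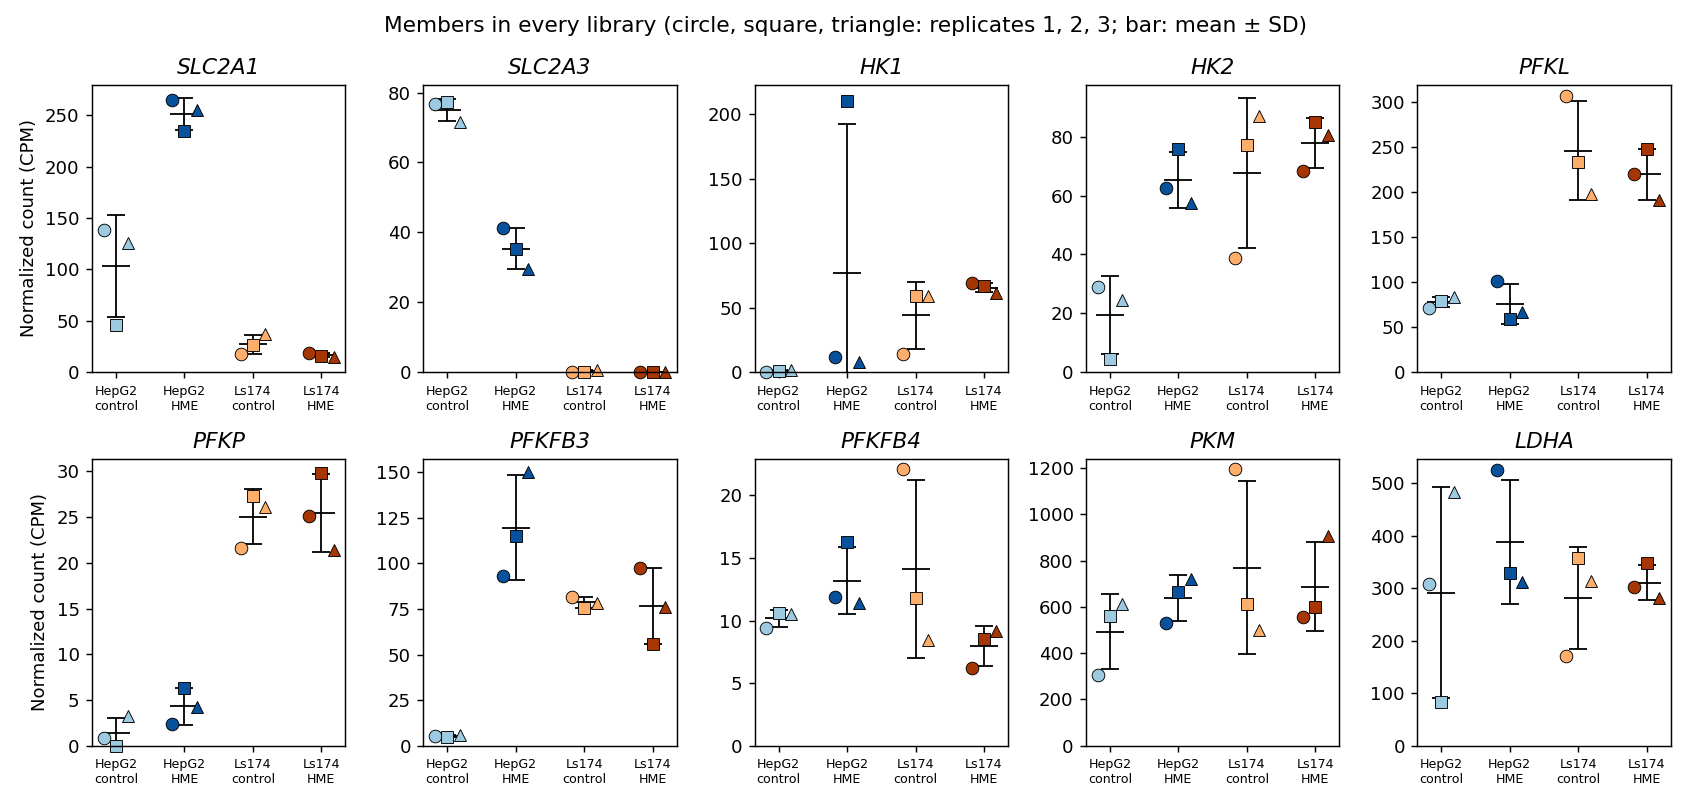
Normalized counts (CPM, linear axes from 0) of the 10 genes in each of the 12 libraries, with the mean and SD of each group as a bar. PFKFB3 stands between 93.0 and 150.1 CPM in HepG2 HME against 4.98 to 6.06 CPM in HepG2 control, whereas the SD of HK1 in HepG2 HME exceeds its mean because HepG2 HME 2 alone reaches 210.3 CPM.

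SLC2A1, HK2 and PFKFB3 lay higher in HepG2 HME, and their promoters are shown because these 3 genes are often described as HIF1A targets. They were picked after their values were seen. The choice leaves out members that did not lie higher, such as LDHA, PKM and SLC2A3. A part of HIF1A in these levels was not tested. Of the 10 genes, 9 matched the RefSeq promoter table (GRCh38.p14, 250 bases before to 50 bases after a gene's start), with 21 windows. For each of the 3 genes, the window with the most matches to the hypoxia-response cores ACGTG and GCGTG is printed 5′ to 3′ on the strand of the gene, with the matches on either strand in capitals. The windows are chr1:42958819-42959118 (minus strand) for SLC2A1, chr2:74834920-74835219 (plus strand) for HK2 and chr10:6202682-6202981 (plus strand) for PFKFB3. 
SLC2A1: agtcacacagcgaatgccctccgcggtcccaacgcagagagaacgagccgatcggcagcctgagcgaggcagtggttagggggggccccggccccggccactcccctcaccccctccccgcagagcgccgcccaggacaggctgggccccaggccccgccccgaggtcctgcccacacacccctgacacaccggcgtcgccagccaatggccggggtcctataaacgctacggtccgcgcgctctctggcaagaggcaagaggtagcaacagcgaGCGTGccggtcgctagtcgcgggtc
HK2: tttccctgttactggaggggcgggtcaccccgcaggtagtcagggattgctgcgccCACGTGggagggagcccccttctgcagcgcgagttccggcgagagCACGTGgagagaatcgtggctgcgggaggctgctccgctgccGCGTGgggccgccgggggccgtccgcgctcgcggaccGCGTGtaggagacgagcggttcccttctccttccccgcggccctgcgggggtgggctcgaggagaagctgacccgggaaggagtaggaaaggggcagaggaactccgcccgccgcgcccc
PFKFB3: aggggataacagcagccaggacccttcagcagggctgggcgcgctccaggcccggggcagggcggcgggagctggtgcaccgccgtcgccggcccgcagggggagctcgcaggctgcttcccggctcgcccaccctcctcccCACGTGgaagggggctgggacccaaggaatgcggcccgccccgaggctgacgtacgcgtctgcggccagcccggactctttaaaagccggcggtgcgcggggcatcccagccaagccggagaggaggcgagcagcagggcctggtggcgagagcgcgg
The window of HK2 held 6 matches, that of PFKFB3 held 2 and that of SLC2A1 held 1. A palindromic E-box, CACGTG, contains ACGTG on both strands and so counts as 2 overlapping matches, which was the case for both matches of PFKFB3 and for 4 of those of HK2. Such matches are common: 48.4% of all 35116 windows of this length held 1 of the cores or more, 21.4% held ACGTG, 36.5% held GCGTG and 7.26% held the E-box. All 9 genes in the table had a match in at least 1 of their windows, as did 52.4% of the 27305 gene symbols in the table, and 14 of the 21 windows of the 9 genes held a match. The 9 genes had more windows per gene than the table as a whole, and base composition was not matched. These shares are therefore not a like comparison, and no enrichment was tested. Genes with a match included LDHA (6 matches in 1 window), PFKL (1 match) and PKM (1 match), whose HepG2 groups overlapped. The matches describe the sequence and do not mark binding. The RNA of HIF1A itself lay at 66.7, 74.8 and 104.7 CPM in HepG2 control and at 159.5, 82.0 and 70.3 CPM in HepG2 HME. Its log2 fold change was 0.36 ± 0.38 SE (edgeR adjusted p = 0.616), and the HIF1A protein was not examined here.

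SLC2A1 encodes GLUT1, the basal glucose transporter of most proliferating cells. In HepG2 control it was measured at 138.5, 46.1 and 125.3 CPM, and in HepG2 HME at 264.7, 234.4 and 255.2 CPM. All treated libraries lay above all controls, and the fitted change was 1.31 ± 0.40 on the log2 scale, or 2.48-fold. The lowest control was HepG2 control 2, and without it the change was 1.00 on the log2 scale. In Ls174 control SLC2A1 was at 17.7, 26.7 and 36.6 CPM, and in Ls174 HME at 18.9, 16.0 and 15.1 CPM. There the groups overlapped through Ls174 control 1, and the fitted change was −0.71 ± 0.31, or −0.92 without that library. SLC2A1 was no longer past the unadjusted limits in Ls174 cells when any other Ls174 library was left out or with DESeq2. The difference of the responses between the lines was 1.98 ± 0.53 on the log2 scale.

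SLC2A3 encodes GLUT3, a transporter with high affinity for glucose that is best known from neurons. It was at 76.6, 77.2 and 71.5 CPM in HepG2 control and at 41.2, 35.4 and 29.4 CPM in HepG2 HME. The groups did not overlap and the change was −1.08 ± 0.29, the opposite direction to SLC2A1. In Ls174 cells SLC2A3 was at the floor: 5 of the 6 libraries had no count, and Ls174 control 3, the library with the most liver marker transcripts, had 2 counts. The part of those liver transcripts in the 2 counts was not tested. SLC2A14, a closely related paralog of SLC2A3 that was chosen after its values were seen, lay at 19.6, 11.2 and 14.1 CPM in HepG2 control and at 1.98, 7.42 and 10.2 CPM in HepG2 HME, with no count in any Ls174 library. How reads that fit both genes were assigned is not given in the sources used here, so the split between them is uncertain.

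SLC2A1 made 64.4%, 37.4% and 63.7% of the SLC2A1 and SLC2A3 counts in HepG2 control and 86.5%, 86.9% and 89.7% in HepG2 HME. The widest 95% Wilson interval among these 6 libraries was 30.9% to 44.3%, in HepG2 control 2. In Ls174 cells the share was 98.6% to 100% in all 6 libraries. These intervals cover counting error only, since reads without molecular identifiers are not independent molecules.

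**Figure D2:**
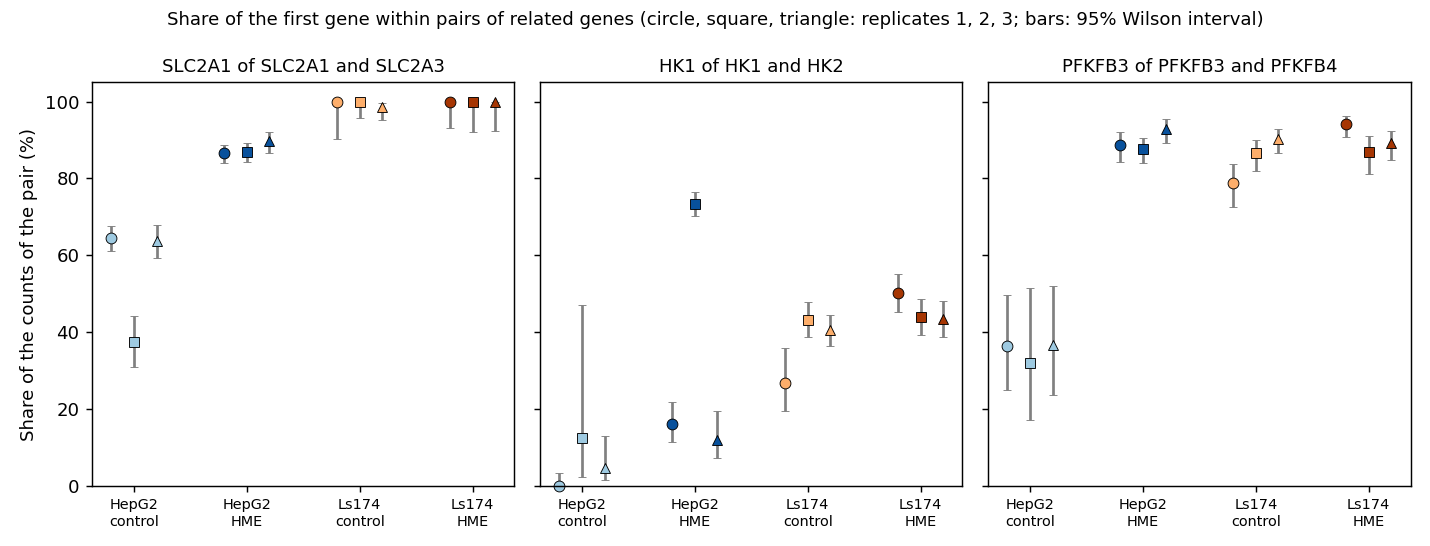
Share (%) of SLC2A1, HK1 and PFKFB3 within the counts of each pair of related genes, by library, with 95% Wilson intervals. With HME the shares of SLC2A1 and PFKFB3 in HepG2 libraries moved up to 86.5% or more and 87.6% or more, and HK1 reached 73.5% only in HepG2 HME 2.

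HK1 is the hexokinase of most tissues, is bound to mitochondria and is usually low in hepatocytes. Its counts in the single libraries were 0, 1 and 3 in HepG2 control and 30, 595 and 13 in HepG2 HME, which correspond to 0, 0.623 and 1.21 CPM and to 11.9, 210.3 and 7.81 CPM. The treated libraries lay above the controls, but HepG2 HME 2 lay far above the other treated libraries and held 595 of the 638 counts of its group. The ratio of summed counts, scaled by library size, was 177 with an exact 95% counting interval of 68.9 to 652, and without HepG2 HME 2 it was 20.0 with an interval of 7.27 to 76.7 (43 against 4 counts). These intervals leave out the spread between replicates, so they do not measure the uncertainty of the HME effect. The fitted change fell from 7.07 ± 1.56 to 4.11 on the log2 scale without that library, and DESeq2 gave no p-value for HK1. In Ls174 cells the counts were 29, 189 and 231 in control and 189, 187 and 187 with HME. Those libraries lay at 14.3, 58.7 and 59.1 CPM and at 68.9, 66.5 and 61.4 CPM, so the treated libraries lay just above the controls, where 11.6% of all genes tested did so (12.2% lay below). The fitted change in Ls174 cells was 0.56 ± 0.43, and 0.16 without Ls174 control 1.

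HepG2 HME 2 also carried transcripts of some collagen genes on the list of mesenchymal markers, while the other markers of that list were low or absent there. Of the 8 mesenchymal markers 6 had counts there, and their sum was 1242 CPM against 3.56 and 15.0 CPM in HepG2 HME 1 and 3 and between 3.11 and 10.5 CPM in HepG2 control. Nearly all of it came from COL1A1 (551 CPM), COL1A2 (408 CPM) and COL5A1 (276 CPM), genes of fibrillar collagens. COL3A1 (1.77 CPM), POSTN (3.54 CPM) and THY1 (0.707 CPM) were low and the proteoglycan genes DCN and LUM had no count, while LUM (3.60 CPM) and THY1 (4.80 CPM) had counts in HepG2 HME 3. LDHB, the other main lactate dehydrogenase subunit, had 56 counts in that library and 4 and 0 in HepG2 HME 1 and 3. The endothelial markers had at most 0.396 CPM in any HepG2 HME library. Whether these transcripts had a part in the HK1 count was not tested. The HK1 counts of 30 and 13 in the other treated libraries were above the 0 to 3 of the controls. The mesenchymal sum was 3.56 and 15.0 CPM in those libraries and at most 10.5 CPM in the controls.

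**Figure D3:**
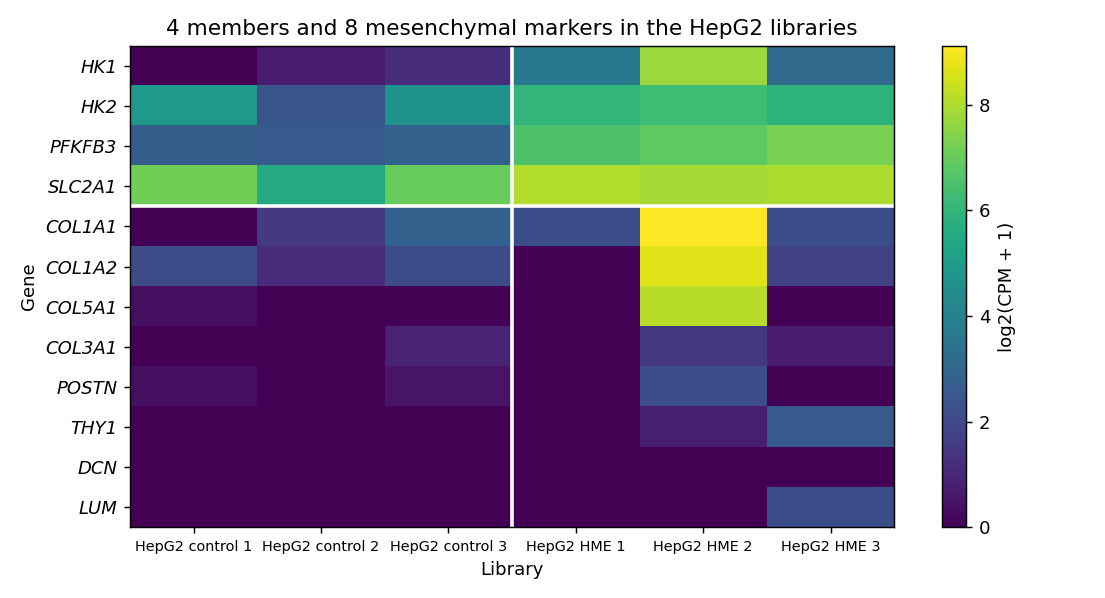
Levels as log2(CPM + 1) of HK1, HK2, PFKFB3 and SLC2A1 (above the line) and of 8 mesenchymal markers (below it) in the 6 HepG2 libraries. COL1A1, COL1A2 and COL5A1 stand at 551, 408 and 276 CPM in HepG2 HME 2, the library with 210.3 CPM of HK1, while HK2, PFKFB3 and SLC2A1 lie between 57.7 and 264.7 CPM in all 3 treated libraries.

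HK2, the inducible hexokinase of muscle and of many tumors, was at 29.0, 4.36 and 24.7 CPM in HepG2 control and at 62.5, 76.0 and 57.7 CPM in HepG2 HME. All treated libraries lay above all controls, with a change of 1.76 ± 0.52 on the log2 scale (3.38-fold). HepG2 control 2 was again the lowest, with 7 counts, and without it the change was 1.35. Without HepG2 HME 2 it was 1.66. In Ls174 cells HK2 was at 38.9, 77.3 and 87.0 CPM in control and at 68.5, 85.0 and 80.5 CPM with HME, which overlap, and the change was 0.19 ± 0.29. The difference between the responses was 1.51 ± 0.64. HK1 made 0%, 12.5% and 4.69% of the HK1 and HK2 counts in HepG2 control and 16.0%, 73.5% and 11.9% in HepG2 HME, so HK2 had more counts than HK1 in all HepG2 libraries but HepG2 HME 2. In Ls174 cells the share of HK1 was 26.9% to 43.2% in control and 43.3% to 50.1% with HME.

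PFKL and PFKP encode the liver-type and platelet-type subunits of phosphofructokinase. PFKL was at 71.5, 78.5 and 82.8 CPM in HepG2 control and at 100.9, 59.0 and 66.7 CPM in HepG2 HME. The treated values lay on both sides of the controls, and the change was −0.03 ± 0.32. In Ls174 cells it was at 305.9, 233.1 and 197.6 CPM in control and at 219.7, 247.8 and 190.9 CPM with HME (−0.17 ± 0.23). PFKP was scarce in HepG2 cells, with 3, 0 and 8 counts in control and 6, 18 and 7 counts in HME libraries, and was too low there for the fit. The ratio of its summed counts was 3.13 (exact 95% counting interval 1.53 to 6.90), but HepG2 HME 1 (2.37 CPM) lay below HepG2 control 3 (3.23 CPM). This interval leaves out the spread between replicates, and 18 of the treated counts came from HepG2 HME 2. In Ls174 cells PFKP lay between 21.4 and 29.9 CPM in all 6 libraries (0.01 ± 0.24). The muscle-type subunit PFKM, which is no member, had 0 to 3 counts in each HepG2 library, so PFKL made 96.2% to 99.2% of the phosphofructokinase counts in HepG2 control and 88.8% to 97.7% in HepG2 HME. It made 78.1% to 89.6% in Ls174 control and 79.2% to 83.3% in Ls174 HME.

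PFKFB3 encodes an enzyme that mainly makes fructose-2,6-bisphosphate. In HepG2 control it was at 5.38, 4.98 and 6.06 CPM (20, 8 and 15 counts) and in HepG2 HME at 93.0, 115.2 and 150.1 CPM (235, 326 and 250 counts). All treated libraries lay far above all controls, and the fitted change was 4.45 ± 0.37 on the log2 scale, or 21.8-fold. It lay between 4.26 and 4.62 when any 1 library was left out, HepG2 HME 2 and HepG2 control 2 included. In Ls174 cells PFKFB3 was already at 81.6, 75.7 and 78.3 CPM in control and was at 97.6, 55.8 and 76.2 CPM with HME. The change there was −0.04 ± 0.23, and the mean of treated HepG2 cells (119 ± 28.8 CPM, SD, n = 3) was of the same order as those of Ls174 control (78.6 ± 2.95 CPM, n = 3) and Ls174 HME (76.6 ± 20.9 CPM, n = 3).

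PFKFB4, a related enzyme with more balanced kinase and phosphatase activities, was at 9.41, 10.6 and 10.5 CPM in HepG2 control and at 11.9, 16.3 and 11.4 CPM in HepG2 HME, so the groups lay apart by a narrow margin and the change was 0.40 ± 0.36. In Ls174 cells it was at 22.1, 11.8 and 8.45 CPM in control and at 6.19, 8.53 and 9.20 CPM with HME (−0.80 ± 0.44). The highest control there was Ls174 control 1, and without it the change was −0.32. PFKFB3 made 36.4%, 32.0% and 36.6% of the counts of the pair in HepG2 control and 88.7%, 87.6% and 92.9% in HepG2 HME, against 78.7% to 94.0% in the 6 Ls174 libraries.

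PKM and LDHA, which act at the end of the pathway, had the highest levels of the 10 genes. PKM was at 307.6, 560.0 and 611.9 CPM in HepG2 control and at 528.6, 663.9 and 721.9 CPM in HepG2 HME, which overlap (0.38 ± 0.36). In Ls174 cells it was at 1196, 614.6 and 499.8 CPM in control and at 556.4, 600.2 and 906.9 CPM with HME (−0.18 ± 0.36), and without Ls174 control 1 the change was 0.31. LDHA was at 308.4, 83.5 and 483.8 CPM in HepG2 control and at 524.7, 328.8 and 312.3 CPM in HepG2 HME. The low control was HepG2 control 2, and the change was 0.45 ± 0.53 with it and 0.04 without it. In Ls174 cells LDHA was at 171.6, 357.9 and 313.6 CPM in control and at 302.0, 348.1 and 282.3 CPM with HME (0.14 ± 0.27). Counts at the 3′ end do not separate the splice forms M1 and M2 of PKM.

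**Figure D4:**
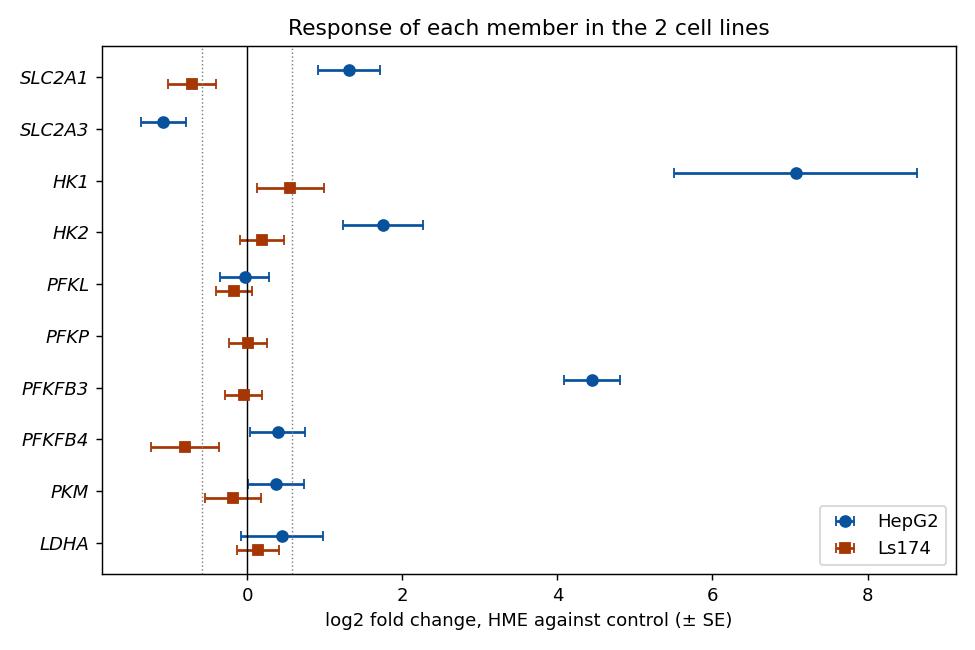
Fitted log2 fold changes with SE of HME against control in HepG2 (circles) and Ls174 (squares), with dotted lines at ±0.58. PFKFB3 (4.45) and HK1 (7.07) stand furthest to the right in HepG2, and no Ls174 value lies above 0.58. PFKP in HepG2 and SLC2A3 in Ls174 were too low to be fitted.

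Set side by side, the difference of the responses (HepG2 minus Ls174, all 12 libraries) was 4.46 ± 0.42 for PFKFB3, 6.51 ± 1.68 for HK1, 1.98 ± 0.53 for SLC2A1 and 1.51 ± 0.64 for HK2. These 4 of the 10 members were past the unadjusted limits in the higher direction, beside 7.42% of the 13040 genes tested, and none in the lower direction, beside 5.75%. PFKFB3 alone was past the adjusted limit (0.613% of genes higher and 0.0307% lower). HK1 fell to 3.54 without HepG2 HME 2. The other differences were 1.57 ± 0.79 for PFKP, 1.18 ± 0.56 for PFKFB4, 0.53 ± 0.52 for PKM, 0.27 ± 0.67 for LDHA and 0.12 ± 0.39 for PFKL. No difference is given for SLC2A3, which was at the floor in Ls174 cells.

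Before treatment the lines differed in most of these genes. Untreated HepG2 cells had higher SLC2A1 (1.95 ± 0.47, HepG2 minus Ls174 on the log2 scale) and SLC2A3. The latter had 586 counts in HepG2 control and 2 in Ls174 control, a scaled ratio of 344 with an exact 95% counting interval of 94.9 to 2849. They had lower PFKFB3 (−3.80 ± 0.34), PFKL (−1.62 ± 0.32) and HK2 (−1.76 ± 0.60), and each of these genes had separate ranges in the lines. The share of all genes with separate ranges between the untreated lines was not counted, so nothing is read from that separation. HK1 had 449 counts in Ls174 control against 4 in HepG2 control (ratio 95.6, interval 37.1 to 352), and PFKP 234 against 11 (ratio 18.1, interval 9.94 to 36.8). The libraries overlapped for PFKFB4 (−0.42 ± 0.48), PKM (−0.60 ± 0.45) and LDHA (0.07 ± 0.57). At the adjusted limit 2 of the 10 members lay higher in HepG2, beside 14.2% of the 11907 genes tested, and 4 lay lower (HK1, PFKFB3, PFKL and PFKP), beside 9.33%. This comparison uses the same control libraries as the comparisons with HME. Its counting intervals leave out the spread between replicates.

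In order of the mean level over 3 libraries, HepG2 control ran PKM (493 ± 163 CPM, SD, n = 3 here and below), LDHA (292 ± 201), SLC2A1 (103 ± 49.97), PFKL (77.6 ± 5.71), SLC2A3 (75.1 ± 3.14), HK2 (19.4 ± 13.2), PFKFB4 (10.2 ± 0.658), PFKFB3 (5.47 ± 0.546), PFKP (1.35 ± 1.68) and HK1 (0.612 ± 0.606). In this order the libraries of LDHA overlapped those of PKM and SLC2A1, those of SLC2A1 overlapped PFKL, those of PFKL overlapped SLC2A3, those of HK2 overlapped PFKFB4 and those of PFKP overlapped HK1. In Ls174 control the order ran PKM (770 ± 373), LDHA (281 ± 97.3), PFKL (246 ± 55.2), PFKFB3 (78.6 ± 2.95), HK2 (67.7 ± 25.5), HK1 (44.02 ± 25.8), SLC2A1 (27.0 ± 9.46), PFKP (25.0 ± 2.99), PFKFB4 (14.1 ± 7.13) and SLC2A3 (0.171 ± 0.296). There the libraries of neighbours in the order overlapped from LDHA to PFKL and from PFKFB3 down to PFKFB4, and did not overlap between PKM and LDHA, PFKL and PFKFB3 or PFKFB4 and SLC2A3. Thus PFKFB3 was the fourth of the 10 genes in Ls174 control and the eighth in HepG2 control, while PKM and LDHA led in both. With HME, PFKFB3 was the fourth in HepG2 as well, after PKM (638 ± 99.2), LDHA (389 ± 118) and SLC2A1 (251 ± 15.5). There its libraries overlapped those of HK1 and PFKL. HK1 exceeded PFKFB3 in HepG2 HME 2 (210.3 against 115.2 CPM), and PFKL exceeded it in HepG2 HME 1 (100.9 against 93.0 CPM).

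Most counts of each gene came from 1 region. This leading region held 100% of the counts of HK1, HK2 and PFKFB4, 99.7% of PFKFB3 and LDHA, 99.5% of PKM, 99.3% of PFKL, 97.0% of SLC2A1, 94.9% of SLC2A3 and 87.4% of PFKP. For HK1 it lies at chr10:71160875-71161835 (hg19, plus strand, 961 bases), of which 752 bases are annotated as untranslated region only, 14 as coding sequence and 195 lie past the annotated end of the gene. For PFKFB3 it lies at chr10:6274858-6277692 (plus strand), with 2593 of 2835 bases in the untranslated region. Those of SLC2A1 (chr1:43390855-43392711, minus strand) and HK2 (chr2:75118069-75120683, plus strand) were 87.8% and 92.5% untranslated region. SLC2A3 was counted at chr12:8071629-8074140 and PFKFB4 at chr3:48554920-48557239, both on the minus strand. No leading region overlapped a region of another gene.

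The other genes of the pathway, 49 in 6 groups written from general knowledge with the members left out, were tested in the same fits. In HepG2 cells 37 could be tested, and at the adjusted limit 0 lay higher, beside 2.77% of all genes, and 1 lower, beside 0.538%. The latter was MLXIPL, the glucose-responsive transcription factor ChREBP, which fell from 107, 252 and 128 CPM to 36.0, 43.5 and 44.4 CPM (−1.99 ± 0.41, edgeR adjusted p = 0.0324). The highest control was HepG2 control 2, and without it the change was −1.44 with an adjusted p of 0.00701. Without HepG2 control 3 or any 1 of the treated libraries the adjusted p lay between 0.0588 and 0.153. At the unadjusted limits 5 of the 37 lay higher, beside 11.3% of all genes, and 7 lower, beside 10.9%. The median log2 fold change was 0.07, beside −0.04 over all genes tested and 0.45 over the 9 members.

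**Figure D5:**
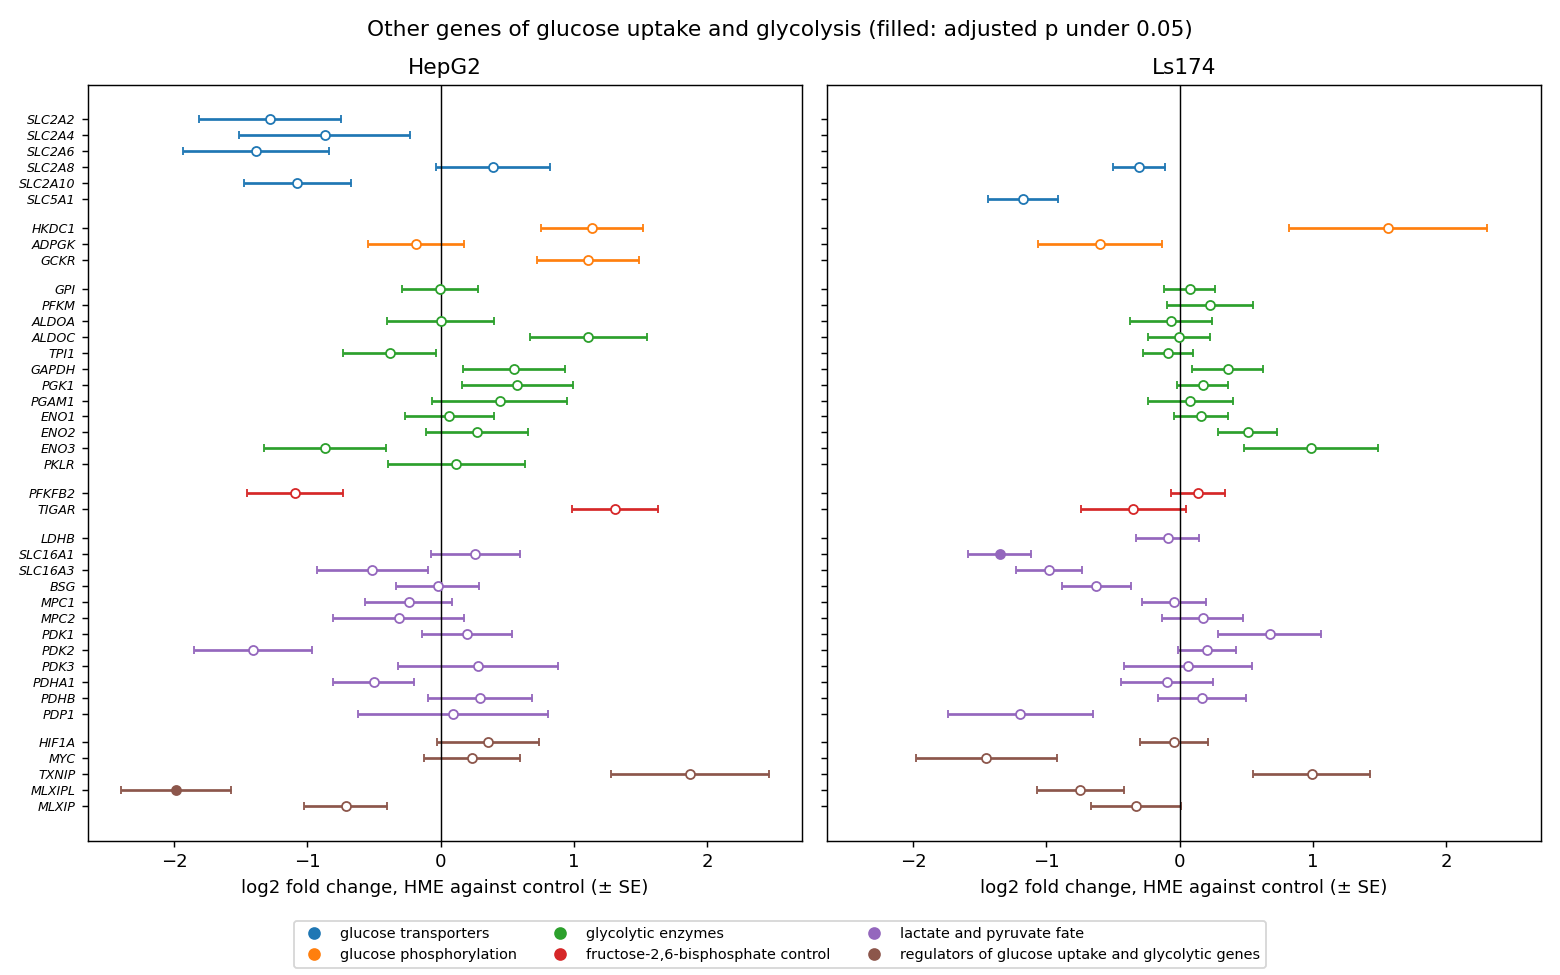
Log2 fold changes with SE of HME against control for the pathway genes tested in HepG2 (left) and Ls174 (right), colored by group, with filled points for an adjusted p under 0.05. The filled points are MLXIPL in HepG2 (−1.99) and SLC16A1 in Ls174 (−1.35), and the reference gene GAPDH lies at 0.55 in HepG2 and 0.36 in Ls174.

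Of the other glycolytic enzymes 0 of 11 tested in each line were past the adjusted limit, which at the shares given above for all genes says nothing particular about this group. At the unadjusted limits of p and fold 1 lay higher in HepG2, beside 11.3% of all genes, and 0 in Ls174, beside 4.11%. In the lower direction there were 0 in either line, beside 10.9% and 7.85%. At an unadjusted p under 0.05 alone there was 1 in HepG2 and 1 in Ls174, both higher, and the share of all genes at that limit was not counted. DESeq2 called none of them. GAPDH was at 1206, 815 and 1464 CPM in HepG2 control and at 1374, 2474 and 1198 CPM in HepG2 HME (0.55 ± 0.38, edgeR adjusted p = 0.418), and its change in Ls174 was 0.36 ± 0.27 (adjusted p = 0.579). ENO1, an enolase and the gene of the group with the highest mean over all 12 libraries, changed by 0.07 ± 0.33 in HepG2 (adjusted p = 0.926) and by 0.16 ± 0.20 in Ls174 (adjusted p = 0.756).

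Of the other glucose transporters, 0 of 5 tested in HepG2 passed the adjusted limit by edgeR or DESeq2. At the unadjusted limits 3 lay lower, beside 10.9% of all genes. SLC2A8, an intracellular transporter and the most abundant of them, changed by 0.39 ± 0.43 in HepG2 (edgeR adjusted p = 0.62) and by −0.30 ± 0.19 in Ls174 (adjusted p = 0.526). SLC2A2, the transporter of hepatocytes, was low in HepG2 control (13.4, 4.36 and 8.89 CPM) and at 2.37, 3.54 and 5.41 CPM with HME (−1.28 ± 0.54, adjusted p = 0.198). It was chosen after its values were seen. HKDC1, a further hexokinase, lay at 58.9, 29.3 and 55.4 CPM in HepG2 control and at 63.7, 126 and 123 CPM with HME (1.14 ± 0.38, adjusted p = 0.128), so that in HepG2 control it was higher than HK1 and HK2 in each library.

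Of the 2 genes tested around fructose-2,6-bisphosphate, neither passed the adjusted limit in either line by edgeR. DESeq2, which called more of all genes in HepG2 than edgeR did, called 1 (TIGAR in HepG2). At the unadjusted limits 1 lay higher in HepG2, beside 11.3% of all genes, and 1 lower, beside 10.9%. PFKFB2, another kinase of the PFKFB family, was at 26.6, 49.8 and 50.5 CPM in HepG2 control and at 23.0, 18.0 and 18.0 CPM with HME, the opposite direction to PFKFB3 (−1.09 ± 0.36, edgeR adjusted p = 0.124). TIGAR (C12orf5 in the files), a phosphatase that breaks fructose-2,6-bisphosphate down and a known p53 target, was at 12.1, 9.97 and 15.0 CPM in HepG2 control and at 34.0, 28.3 and 28.8 CPM with HME (1.31 ± 0.32, adjusted p = 0.0589). It was chosen after its values were seen. The HepG2 groups did not overlap for either gene, PFKFB2 lying lower beside 15.3% of all genes tested and TIGAR higher beside 15.5%. Among the regulators TXNIP, which restrains glucose uptake and is a target of MLXIPL, lay at 4.57, 0.623 and 3.64 CPM in HepG2 control and at 17.0, 10.6 and 6.61 CPM with HME (1.87 ± 0.59, adjusted p = 0.112). It was likewise chosen after its values were seen.

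In Ls174 cells 34 pathway genes were tested, and at the adjusted limit 0 lay higher, beside 0.318% of all genes, and 1 lower, beside 0.866%. SLC16A1, which encodes the lactate and pyruvate transporter MCT1, fell from 62.0, 52.1 and 64.3 CPM to 17.9, 27.0 and 25.3 CPM (−1.35 ± 0.24, edgeR adjusted p = 0.0392). All treated libraries lay below all controls, beside 12.2% of all genes tested in Ls174. Without any 1 library other than Ls174 control 1 the adjusted p lay between 0.12 and 0.274, and without Ls174 control 1 it was 0.000675. In HepG2 cells SLC16A1 was at 78.0, 38.6 and 83.3 CPM in control and at 81.9, 81.3 and 72.7 CPM with HME, and the difference between the lines was 1.58 ± 0.43 (adjusted p = 0.124). At the unadjusted limits 0 of the 34 lay higher, beside 4.11% of all genes, and 6 lower, beside 7.85%, with a median of −0.02 beside −0.0029 over all genes tested and −0.04 over the 9 members. No pathway gene passed the adjusted limit for the difference between the lines, where 40 were tested. DESeq2, which also called more of all genes there than edgeR did, called 1 at that limit. At the unadjusted limits 4 lay higher, beside 7.42% of all genes, and 4 lower, beside 5.75%.

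Between the untreated lines, 9 of the 38 pathway genes tested lay higher in HepG2 at the adjusted limit, beside 14.2% of all genes, and 5 lower, beside 9.33%. LDHB had 3 counts in HepG2 control against 5728 in Ls174 control, a scaled ratio of 1625 with an exact 95% counting interval of 556 to 7884, so LDHA made 99.8% to 100% of the counts of the pair in HepG2 control and 16.9% to 37.7% in Ls174 control. SLC5A1, the sodium-coupled glucose transporter of intestine, had 197 counts in Ls174 control and none in HepG2 control, a ratio whose exact 95% counting interval begins at 45.0. SLC2A10 had 108 counts in HepG2 control and none in Ls174 control, with an interval that begins at 33.8. PFKM had 218 counts in Ls174 control against 2 (ratio 92.8, interval 25.4 to 771), and HKDC1 was higher in HepG2 (4.30 ± 0.73, edgeR adjusted p = 0.00238). The counting intervals given here likewise leave out the spread between replicates.

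Among the genes whose levels over the 12 libraries were most like those of HK1 were GPRC5A (Pearson r = 0.97 of log2 CPM), ETS2 (0.89), TOMM7 (0.88) and TARS (0.88), out of 13040 genes. GPRC5A shared the high value of HepG2 HME 2, with 103.6 CPM there against 5.54 and 7.21 CPM in HepG2 HME 1 and 3. For PFKFB3 they were TRIM11 (0.97), ATXN7L2 (0.95), KLF5 (0.95), UBALD2 (0.95) and OAZ2 (0.95). KLF5, an epithelial transcription factor, was at 1.61, 1.25 and 1.62 CPM in HepG2 control, at 52.6, 36.1 and 41.4 CPM in HepG2 HME and between 51.6 and 82.2 CPM in Ls174 cells. These correlations are over libraries of 2 lines and share the contrast that chose the members, so they are given as a description.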

How the data were processed

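RNA of HepG2 and Ls174 cells was measured in 12 libraries. The authors made 3′ libraries (QuantSeq), aligned the reads with HISAT2 to hg19 and analysed them with metaseqR2, and the deposited files hold raw counts for 144910 regions. Bowtie2 and Trimmomatic also appear in the submitters' processing notes. Strand settings and the treatment of reads with several alignments are not given in the sources used here.

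Region counts were added up within each gene. HME was compared with control in each line, the untreated lines with each other, and the response between lines over all 12 libraries, in R 4.3.3 with the quasi-likelihood F test of edgeR 4.0.16 (two-sided, TMM, genes kept by filterByExpr, Benjamini-Hochberg over all genes tested). The study's methods name a binomial test, and its limits were kept. The SE is the log2 fold change divided by the root of F. Ratios of low counts were scaled by effective library size, with exact conditional binomial intervals, and shares have Wilson intervals. Neither kind of interval includes the spread between replicates. The fits were tested on simulated data.

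The members and gene lists were chosen with earlier results of these data known. Named were all members, pathway genes past an adjusted p of 0.05 (at most 5 per comparison, by size), GAPDH, the most abundant gene of each pathway group, the 5 genes most like HK1 and the 5 most like PFKFB3, and the leading marker of each list. Other markers, and genes said to be so, were chosen after their values were seen. Replicates differed by more than sampling noise. Alternatives were DESeq2 1.42.0, library size or median-ratio scaling, no filter, the replicate number as a block, the leading region only, no shared regions, and leaving out each library. The proteome was not analysed here, and some items that this rule names are not reported here.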

Additional observations from a re-analysis of the deposited data

Results flagged for a closer look

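PFKFB3 was singled out because its response to HME differed between the lines in the interaction test: the change in HepG2 exceeded that in Ls174 by 4.46 ± 0.42 on the log2 scale, with all treated HepG2 libraries above all controls and overlapping groups in Ls174. The gene was chosen on this contrast, so the value is a description. No other gene of the members or the pathway list met this criterion.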

How the results depend on the processing

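All numbers here are genes at an adjusted p under 0.05 unless another unit is given. By edgeR 375 genes passed in HepG2, 134 in Ls174, 84 for the difference of the responses and 2798 between the untreated lines. DESeq2 gave 1033, 434, 380 and 3461, and no filter gave 1407, 604, 367 and 4169. Leaving out 1 library gave 95 (without HepG2 HME 3) to 921 (without HepG2 control 2) in HepG2, 0 to 979 (without Ls174 control 1) in Ls174, 17 (without Ls174 HME 3) to 143 (without Ls174 control 1) for the difference and 2134 to 3367 between untreated lines. Without both control libraries that stood apart, chosen after seeing the data, the difference gave 433 and the untreated lines 5625. Scaling by library size gave 49 for the difference, moved the median of all genes by −0.15 (log2) in HepG2 and by −0.21 between untreated lines, and lowered the share of calls that were higher in HepG2 from 83.7% to 60.3% (unadjusted limits: 50.9% to 33.2%, and in Ls174 34.4% to 24.9%).

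Of the pathway genes, 1 passed in HepG2 (DESeq2 4, no filter 5, leaving out 1 library 0 to 2), 1 in Ls174 (DESeq2 3, no filter 3, 0 to 5), 0 for the difference (1 with DESeq2, with no filter or without both control libraries) and 14 between untreated lines (23 without both control libraries). Of the members, 2 passed in HepG2, 5 without HepG2 control 2 and 4 with DESeq2, and SLC2A1 passed in Ls174 without Ls174 control 1. The numbers of all genes called rose under these same settings, as given above. Nothing about the members or the pathway genes is therefore read from these counts. Of 574 refitted log2 fold changes of members, 556 moved by less than 1 SD between replicates and 18 by more. With 3 libraries a group, leaving out 1 can hardly move a mean by 1 SD, and an outlying library widens that SD. The count therefore does not measure stability. HK1 in HepG2, for example, went from 7.07 to 4.11 without HepG2 HME 2. Same-numbered control and HME libraries did not deviate together (correlations of −0.17, 0.09 and −0.12 in HepG2 and −0.04, −0.01 and −0.05 in Ls174). HepG2 control 3 and HepG2 HME 1, with different numbers, had a correlation of 0.31. With 3 libraries a group such values cannot decide whether the libraries were paired. The replicate block gave 349 genes in HepG2, 0 in Ls174, 16 for the difference and 1890 between untreated lines, and 0 pathway genes in Ls174, where the adjusted p of SLC16A1 was 0.171. Causes of these shifts were not tested. At 1790841 to 3656662 counts a library, genes of a few counts such as HK1 and PFKP in HepG2 control have wide counting intervals.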
